A study of Homo sapiens with 18 samples.

Results

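The first and last counted intervals of long, many-interval genes were compared in new RNA from MDA-MB-453 cells, a human breast cancer line with luminal, androgen receptor-positive features. The deposited table holds 98665 numbered intervals of 12755 genes. Of these genes, 3900 had 10 or more intervals, and the interval with the lowest and the one with the highest number were taken from each. The numbers run along the genome, so the lowest number is the 5′ end of a gene on the plus strand and the 3′ end of a gene on the minus strand. A strand was found in GENCODE release 29 for 3867 of the 3900 (1993 plus, 1874 minus), which gave 7734 end rows. The other 33 had no entry and were left out. Nearly all were protein-coding (3826), with a median of 15 rows and at most 59 rows per gene.

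Cells received either DMSO, the solvent control, or JQ1-VHL for 3 h. JQ1-VHL joins the BET bromodomain ligand JQ1 to a ligand of the VHL ubiquitin ligase, and the sample titles call the same treatment dBET. All cells were given 0.1 mM 4-thiouridine for the last 60 min, and RNA was taken from whole cells (total) or from cytoplasm and nuclei parted with 1 mg/ml digitonin. Each of the 6 groups (DMSO or JQ1-VHL, in nuclear, cytoplasmic or total RNA) had 3 libraries, 18 libraries in all, from 1 cell line. The labels do not say that the 3 were separate cultures, so the p-values reflect spread among these libraries, which may be technical.

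RNA polymerase II copies a gene from its 5′ end to its 3′ end, so a polymerase reaches the last introns only after it has passed the first. BET proteins bind acetylated chromatin and support the release of paused polymerase into the gene body. In SLAM-seq, 4-thiouridine built into new RNA is alkylated and read as T-to-C changes, so reads with such changes come from RNA made during the label. The table counts these T-to-C reads per interval, divided by 1 factor per library from ERCC spike-in RNA. One read was worth 0.470 to 2.75 of these units, and values are given below in units. ERCC RNA was added per mass of RNA, so a level is per mass of RNA and not per cell. A plain ratio of both ends of 1 gene in 1 library does not depend on that factor. The ratios fitted below add 1 unit to each row, so those of low rows still depend on it in part.

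Libraries held 1584517 to 6773386 T-to-C reads in the table. The 3 JQ1-VHL nuclear libraries were the shallowest of all, and in the third of them 30.5% of rows were at 0. In the DMSO nuclear libraries 1.06% to 1.93% of rows were at 0, against 4.20% to 37.9% in all others. Whether a filter on the DMSO nuclear libraries was used to make the table is not given in the sources used here. All 11 of the luminal markers looked up had rows, among them KRT8 at 2403 to 59835 units in DMSO. Of 11 markers of blood, endothelial, fibroblast, basal and liver cells, 9 had no row. COL1A1 (102 to 1035 units in DMSO) and ALB (0 to 37.1 units) did, and their part in the results was not tested.

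What an interval is had to be read from the numbering. In 1093 of the 3867 genes the rows started at 1 and ended at the number of gaps between merged exons in GENCODE 29, so the intervals were taken as likely introns. In other genes the count differed, and in those the first or last row may lie inside the annotated end. Several rows that match gaps far shorter than a 150 bp read hold many reads, such as the first row of SSH3, with a gap of 17 bp. Whether spliced or exonic reads were counted, and on which strand, is not given in the sources used here. In only 369 of the 997 genes tested below is the numbering complete in that way. Polymerase enters these genes at their promoters, and 4 upstream stretches are shown as the annotated start, which need not lie next to the first counted row. They are the 250 bases before the RefSeq start (GRCh38.p14) of 3 genes whose 5′ to 3′ ratio rose in every fraction and 1 whose ratio fell in every fraction. Those genes were picked after their values were seen, among the few whose GENCODE start is not upstream of the RefSeq start. Capitals mark the GC box GGGCGG, the CCAAT box, the TATA box letters TATAAA or the E-box letters CACGTG, on either strand, and neighbouring GC boxes can overlap. NSD2 lies at chr4:1871143-1871392 on the plus strand and holds 6 GC boxes and 1 CCAAT. YAP1 lies at chr11:102110197-102110446, plus, with 3 GC boxes and 1 E-box. SLC7A5 lies at chr16:87869508-87869757, minus, with 4 GC boxes and 1 E-box. ARHGAP32, the gene whose ratio fell, lies at chr11:129279519-129279768, minus, with 7 GC boxes and 1 E-box.
NSD2: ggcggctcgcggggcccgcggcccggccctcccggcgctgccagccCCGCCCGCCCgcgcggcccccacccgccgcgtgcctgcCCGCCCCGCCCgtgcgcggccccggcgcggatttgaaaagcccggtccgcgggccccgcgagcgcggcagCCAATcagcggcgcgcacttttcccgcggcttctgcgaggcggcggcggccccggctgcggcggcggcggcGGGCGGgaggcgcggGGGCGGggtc
YAP1: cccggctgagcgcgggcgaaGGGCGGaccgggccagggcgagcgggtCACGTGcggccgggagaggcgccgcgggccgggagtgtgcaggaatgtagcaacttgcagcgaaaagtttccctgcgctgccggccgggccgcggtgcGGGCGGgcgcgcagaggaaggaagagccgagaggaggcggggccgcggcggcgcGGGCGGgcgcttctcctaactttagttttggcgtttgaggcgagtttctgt
SLC7A5: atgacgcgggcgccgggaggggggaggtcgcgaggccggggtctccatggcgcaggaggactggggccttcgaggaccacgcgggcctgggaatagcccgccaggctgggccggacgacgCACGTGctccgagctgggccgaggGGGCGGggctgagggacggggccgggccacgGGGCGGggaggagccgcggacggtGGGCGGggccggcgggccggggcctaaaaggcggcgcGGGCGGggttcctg
ARHGAP32: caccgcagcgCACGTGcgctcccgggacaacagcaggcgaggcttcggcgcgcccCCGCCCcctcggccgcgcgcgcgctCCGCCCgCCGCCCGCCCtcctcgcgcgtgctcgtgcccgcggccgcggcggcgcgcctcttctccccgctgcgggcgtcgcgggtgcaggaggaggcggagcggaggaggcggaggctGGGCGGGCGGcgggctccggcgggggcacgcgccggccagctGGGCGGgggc
A GC box stood in 77.0% of the promoters of tested genes found in the RefSeq table (800 of 997; 300 bases, 250 before to 50 after the start) and in 44.6% of all 27305 promoters of that length. Among the 72 matched genes whose nuclear ratio rose, 84.7% had one. Between all promoters and those of tested genes, the CCAAT box stood in 35.7% and 38.9%, the E-box in 7.43% and 10.9%, and the TATA box in 12.0% and 4.75%. A match describes letters, not a bound site.

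The drug moved the balance of new RNA towards the 5′ end of these genes in the nucleus and in total RNA. In 997 genes (523 plus, 474 minus) both end rows had a mean of at least 10 units over all 18 libraries and were tested. Of the rest, 475 passed with the 5′ row only, 1275 with the 3′ row only and 1120 with neither, and these have no ratio test. The ratio was taken as log2(5′ row + 1) minus log2(3′ row + 1) in each library. Its median over the 997 genes was -0.51, -0.60 and -0.58 in the 3 DMSO nuclear libraries and -0.09, -0.12 and 0.00 under JQ1-VHL. In total RNA the medians were -0.45, -0.51 and -0.37 under DMSO and 0.12, 0.13 and 0.29 under JQ1-VHL. In the cytoplasm they were -0.51, -0.59 and -0.31 under DMSO and 0 in all 3 JQ1-VHL libraries. In each fraction the 3 DMSO libraries lay below the 3 JQ1-VHL libraries. Averaged over same-numbered pairs, the median shifted by 0.49 ± 0.08 (SD, n = 3) in the nucleus, by 0.47 ± 0.15 in the cytoplasm and by 0.62 ± 0.05 in total RNA. A test over these medians is not given, because the genes were proposed with results of these data known.

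**Figure D1:**
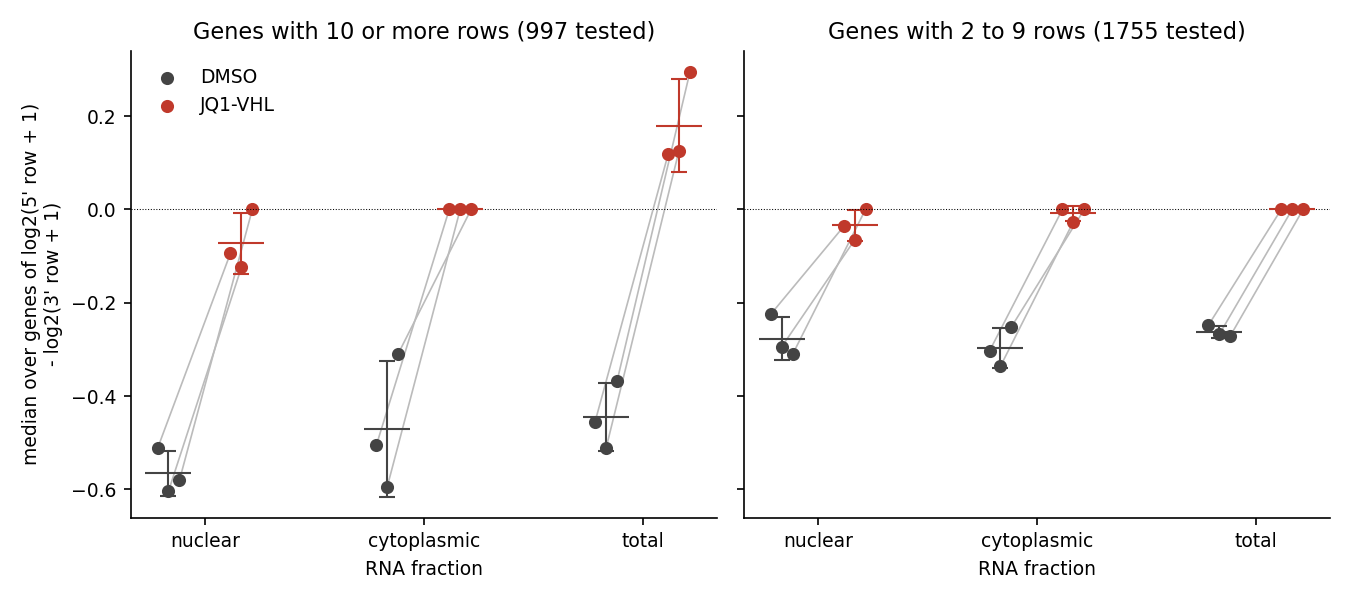
Median over genes of log2(5′ row + 1) minus log2(3′ row + 1), one point per library, for the tested genes with 10 or more rows and for tested genes with 2 to 9 rows, by RNA fraction, with bars for mean and SD of 3 libraries and grey lines between same-numbered libraries. For genes with 10 or more rows the DMSO points sit at -0.60 to -0.31 and the JQ1-VHL points at -0.12 to 0.29.

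Medians of exactly 0 arise where many genes have equal or empty end rows. Both ends were at 0 in up to 24 of the 997 genes in a JQ1-VHL nuclear library and in 12 to 59 in the JQ1-VHL cytoplasmic libraries. Further readings were therefore added after the data were seen. Among genes with unequal ends, the 5′ row was the higher in 37.1%, 34.0% and 34.9% of genes in DMSO nuclear libraries and in 48.5%, 47.4% and 52.3% under JQ1-VHL. In total RNA these shares were 39.0% to 40.9% against 52.2% to 55.3%, and in the cytoplasm 40.7% to 45.3% against 48.7% to 50.4%. In the 150 genes whose end rows both had a mean of at least 50 units, the nuclear median went from -0.78, -0.62 and -0.67 to -0.29, -0.38 and -0.09. In total RNA it went from -0.45, -0.38 and -0.35 to -0.01, 0.15 and 0.24. In the cytoplasm the groups of these 150 genes overlapped, at -0.16, -0.28 and -0.12 under DMSO and -0.07, -0.17 and -0.34 under JQ1-VHL. Thus the cytoplasmic shift was seen with the weaker rows and not in the strongest ones.

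Summed reads, in which genes with high end rows weigh most, were read as well. Over all 3867 genes, with no filter, the sum of 5′ rows divided by the sum of 3′ rows was 0.578, 0.515 and 0.517 in the DMSO nuclear libraries and 0.658, 0.650 and 0.637 under JQ1-VHL. In total RNA it was 0.534, 0.533 and 0.561 against 0.625, 0.610 and 0.631. In the cytoplasm it was 0.546, 0.583 and 0.466 against 0.569, 0.566 and 0.534, and the groups overlapped. With each gene given the same weight in all 6 libraries of a fraction, the 5′ share of end reads was 35.1% ± 0.32 (SD, n = 3) under DMSO and 38.0% ± 0.45 under JQ1-VHL in the nucleus. It was 35.1% ± 0.82 and 37.5% ± 0.32 in total RNA, without overlap. In the cytoplasm, 35.9% ± 1.55 and 36.7% ± 0.40 overlapped. With the weight of a gene limited to 50 reads, the cytoplasmic groups no longer overlapped, at 37.5% ± 0.73 and 39.6% ± 0.094. The nucleus then went from 36.2% ± 0.77 to 40.0% ± 0.76, and total RNA from 36.7% ± 0.53 to 40.9% ± 0.74. The cytoplasmic reading thus changed with the limit on weight.

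The shift was present on both strands, which carry opposite interval numbers at their 5′ ends. The fitted nuclear change had a median of 0.52 in genes on the plus strand and 0.55 in those on the minus strand. In genes with 2 to 9 rows, of which 1755 were tested, the median fitted change was 0.20 in the nucleus, 0.12 in the cytoplasm and 0.16 in total RNA. In genes with 10 or more rows it was 0.53, 0.33 and 0.53. The step at the threshold was gradual in the nucleus: the median was 0.24 in genes with 8 rows, 0.46 with 9, 0.52 with 10 and 0.62 with 11.

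Gene by gene, the 5′ to 3′ ratio rose more often than it fell. Ratios were fitted with limma over all 2752 genes with at least 2 rows and both ends at the minimum, and p-values were adjusted over all of them by Benjamini-Hochberg. In the nucleus the ratio rose in 83 genes and fell in 17 at an adjusted p under 0.05, where 6.0% of all tested genes rose and 2.00% fell. The 997 genes stood at 8.32% and 1.71%. In the cytoplasm 99 rose and 29 fell (6.87% and 3.31% of all tested), and in total RNA 129 rose and 35 fell (8.98% and 3.89% of all tested). The estimate was above 0 in 669 genes in the nucleus (62.3% of all tested), 593 in the cytoplasm (58.4%) and 668 in total RNA (62.3%). These make up 67.1%, 59.5% and 67.0% of the 997. Nuclear ratios of DMSO and JQ1-VHL did not overlap in 345 genes that were higher (27.4% of all tested) and 99 that were lower (10.8%). In the cytoplasm this held for 161 higher (14.0%) and 63 lower (6.90%), and in total RNA for 339 (26.0%) and 86 (11.4%). The nuclear count of 100 depended on single libraries: it was 26, 55 and 53 without DMSO nuclear replicates 1, 2 and 3, and 28 without JQ1-VHL nuclear replicate 3. The total count of 164 was 68, 78 and 105 without DMSO total replicates 1, 2 and 3, and 100 and 72 without JQ1-VHL total replicates 2 and 3.

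Each end was then followed by itself on the deposited scale. In the nucleus the 3′ rows had lost more new RNA than the 5′ rows: the median log2 change was -1.88 for 3′ rows, -1.22 for 5′ rows and -1.38 for all 48618 rows tested. By limma, 333 of the 997 3′ rows fell (33.4%) and 143 of the 5′ rows fell (14.3%), where 22.6% of all rows fell. Both ends fell in 71 genes, the 3′ row alone in 262, the 5′ row alone in 72, and neither in 592. Only 2 of the 5′ rows rose and none of the 3′ rows (0.0555% of all rows). In total RNA the medians were -0.76 for 3′ rows and -0.05 for 5′ rows, with 71 and 22 called lower (4.24% of all rows) and 0 and 3 called higher (0.0967%). In the cytoplasm they were -0.07 and 0.26, with 45 and 18 called lower (2.71% of all rows) and 0 and 1 called higher (0.130%). These counts turn on single libraries. The 478 nuclear calls became 32 and 260 without DMSO nuclear replicates 1 and 2, and 26 without JQ1-VHL nuclear replicate 3. The 64 cytoplasmic calls became 13, 149 and 10 without DMSO cytoplasmic replicates 1, 2 and 3, and 42 and 24 without JQ1-VHL cytoplasmic replicates 1 and 3. The 96 calls in total RNA became 5 and 55 without DMSO total replicates 1 and 3, and 21 and 9 without JQ1-VHL total replicates 2 and 3. With the replicate number as a block, 103 end rows were called in the cytoplasm and 175 in total RNA.

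The spike-in scale moves every row of a library together, so the rows were also rescaled to a common median ratio. In the nucleus this moved the median of all rows from -1.38 to -0.24. On that scale 257 of the 3′ rows and 91 of the 5′ rows were lower (17.6% of all rows), and 78 and 97 were higher (9.72% of all rows). The order of both ends was kept: medians were -0.77 for 3′ rows and -0.11 for 5′ rows. In total RNA the rescaled medians were -0.85 and -0.14, with 283 and 97 rows lower (17.0% of all rows) and 23 and 37 higher (2.62%). In the cytoplasm they were -0.34 and -0.03, with 136 and 53 lower (9.59%) and 34 and 22 higher (2.42%).

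The end difference was the edge of a slope along the gene. All rows of the 3867 genes were put in 10 bins by their order from the 5′ end, and rows at a mean of at least 10 units were used. In the nucleus the median log2 change was -1.10 in the first bin, -0.90 in the second, -0.89 in the third and -0.91 in the fourth. It then went through -0.96, -1.09, -1.18, -1.33 and -1.54 to -1.82 in the last. Bins 2 to 4 thus lost least, with values close to each other, and the last bin lost most. In total RNA the median was 0.08 in the first bin, 0.28 in the third and -0.66 in the last. In the cytoplasm it was 0.32 in the first, 0.42 in the third and the fourth and 0.01 in the last.

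By the median over rows, the slope was seen in each same-numbered pair of libraries, while its height differed. From the first to the last bin, the nuclear median went from -1.63 to -2.20 in pair 1, from -0.18 to -0.72 in pair 2 and from -1.52 to -2.39 in pair 3. In total RNA it went from -0.95 to -1.64, from 0.67 to 0.01 and from 0.49 to -0.21. In the cytoplasm it went from -0.03 to -0.41, from 2.41 to 1.91 and from -1.30 to -1.54. Units summed over all rows of a bin, with no minimum, gave the same direction in the nucleus and in total RNA but not throughout the cytoplasm. From the first to the last bin, the nuclear JQ1-VHL sum divided by the DMSO sum went from 0.309 to 0.273 in pair 1, from 0.886 to 0.723 in pair 2 and from 0.338 to 0.275 in pair 3. In total RNA it went from 0.558 to 0.478, from 1.93 to 1.71 and from 1.68 to 1.52. In the cytoplasm it was nearly level in pair 1 (1.12 and 1.10), higher at the end in pair 2 (6.30 and 6.63) and lower in pair 3 (0.460 and 0.427). The last bin read -1.78 on the plus strand and -1.85 on the minus strand. Rows passed the level minimum in 40.1% of cases in the first bin and 58.9% in the last, and annotated gaps had a median of 2845 bp in the first and 1170.5 bp in the last. The part of row level and interval length in the slope was not tested.

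**Figure D2:**
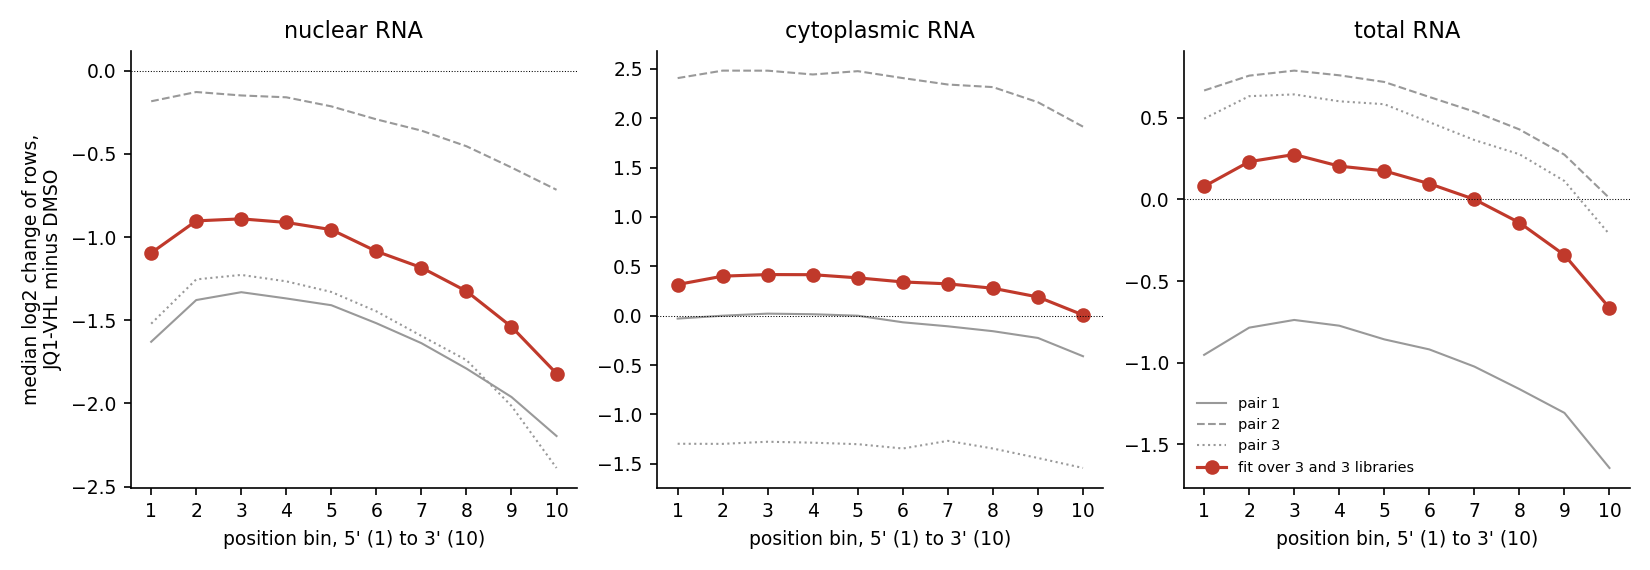
Median log2 change of rows (JQ1-VHL minus DMSO, spike-in scale) in 10 position bins from the 5′ end (1) to the 3′ end (10), per RNA fraction. The red line is the fit over 3 and 3 libraries and the grey lines are the 3 same-numbered pairs; the nuclear fit is least negative in bin 3 (-0.89) and reaches -1.82 in bin 10.

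Counted row by row from each end, the loss deepened over the last rows. In the nucleus the last row had a median change of -1.92 and the next ones inwards -1.79, -1.66, -1.54 and -1.42. The share of rows called lower went from 34.9% at the last row to 21.1% at the fifth from the end. At the 5′ end the first row stood at -1.25, and the next at -1.12, -1.04, -1.02 and -0.99, with 15.2% to 11.9% called lower. The very first row thus had a lower median than the 4 rows behind it.

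Single genes show what this looked like. In MYO1C, NSD2, CDC73, CRAT and GSR the highest interval numbers are 35, 30, 20, 14 and 13. GENCODE 29 has 39, 28, 25, 17 and 16 gaps there, so their end rows need not be the annotated first and last gaps. MYO1C (chr17:1464186-1492812, minus, GRCh38, 34 rows) encodes an unconventional myosin with nuclear and cytoplasmic forms. Its 5′ row held 22.1, 8.98 and 5.17 units in DMSO nuclei and 10.6, 11.6 and 2.38 under JQ1-VHL, and these overlapped. Its 3′ row went from 90.9, 20.8 and 18.8 units to 1.60, 1.94 and 0, without overlap. The log2 ratio went from -1.99, -1.12 and -1.68 to 2.16, 2.10 and 1.76, a rise of 3.61 ± 0.72 (limma, SE, adjusted p = 0.0064). It rose by 3.35 in the cytoplasm and 4.10 in total RNA, and the cytoplasmic call was lost with edgeR and with thinned reads (adjusted p up to 0.50). Inside the gene, row 12 stood at 108 ± 29 units (SD, n = 3) under DMSO and 70.7 ± 19.3 under JQ1-VHL, while row 17 went from 9.14 ± 3.77 to 0.532 ± 0.921. The rows from 17 on were the depleted ones.

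NSD2 (chr4:1871424-1982207, plus, 30 rows) encodes a histone H3 lysine methyltransferase. Its nuclear 5′ row held 89.3, 38.7 and 24.0 units under DMSO and 35.6, 49.1 and 10.9 under JQ1-VHL. Its 3′ row went from 151, 58.9 and 40.9 to 11.7, 13.6 and 0.950 units. The 5′ groups overlapped and the 3′ groups did not. The ratio rose by 2.67 ± 0.79 (limma, adjusted p = 0.045) in the nucleus, by 4.90 ± 0.79 (adjusted p = 0.0010) in the cytoplasm and by 3.50 in total RNA. Row 13 stood at 113 ± 56.2 and 77.0 ± 24.7 units, and row 18 at 8.97 ± 5.51 and 0.215 ± 0.373. The nuclear call of NSD2 was lost when the replicate number was fitted as a block and when any of the 6 nuclear libraries was left out (adjusted p up to 0.18).

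CDC73 (20 rows) encodes a subunit of the PAF1 complex, which travels with elongating polymerase. Its nuclear 5′ row held 89.3, 85.9 and 73.4 units under DMSO and 63.8, 63.9 and 31.4 under JQ1-VHL. Its 3′ row went from 20.5, 10.7 and 7.99 to 0.532, 0 and 0. The ratio rose by 2.81 ± 0.77 (limma, adjusted p = 0.035) in the nucleus, 4.25 in the cytoplasm and 3.65 in total RNA. Rows 12 to 14 kept much of their level, with row 13 at 121 ± 42.4 and 64.1 ± 20.2 units. Row 19 went from 150 ± 89.2 to 11.8 ± 9.81 units. Its nuclear call was lost when any of the 6 nuclear libraries was left out (adjusted p up to 0.23). B3GALT2 overlaps this gene, and its reads cannot be told apart from those of CDC73 without the strand.

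KPNA2 (chr17:68035519-68046842, plus, 11 rows), the importin alpha 1 transport adaptor, was among the 6 genes with the highest end rows in DMSO nuclei. Its 5′ row held 1463, 915 and 656 units under DMSO and 973, 1177 and 325 under JQ1-VHL. Its 3′ row held 402, 135 and 137 against 115, 127 and 27.1. Neither row passed the test by itself, but their ratio rose from 1.86, 2.75 and 2.25 to 3.06, 3.21 and 3.53. The rise was 0.98 ± 0.22 (limma, adjusted p = 0.012) in the nucleus, 1.21 in the cytoplasm and 0.88 in total RNA. Its nuclear call was lost without DMSO nuclear replicate 1 or JQ1-VHL nuclear replicate 3 (adjusted p up to 0.082), and its call in total RNA when any of 4 libraries was left out (up to 0.075). Its levels stepped down along the gene in both groups. The first gap of KPNA2 in GENCODE 29 is 119 bp long, shorter than a read.

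**Figure D3:**
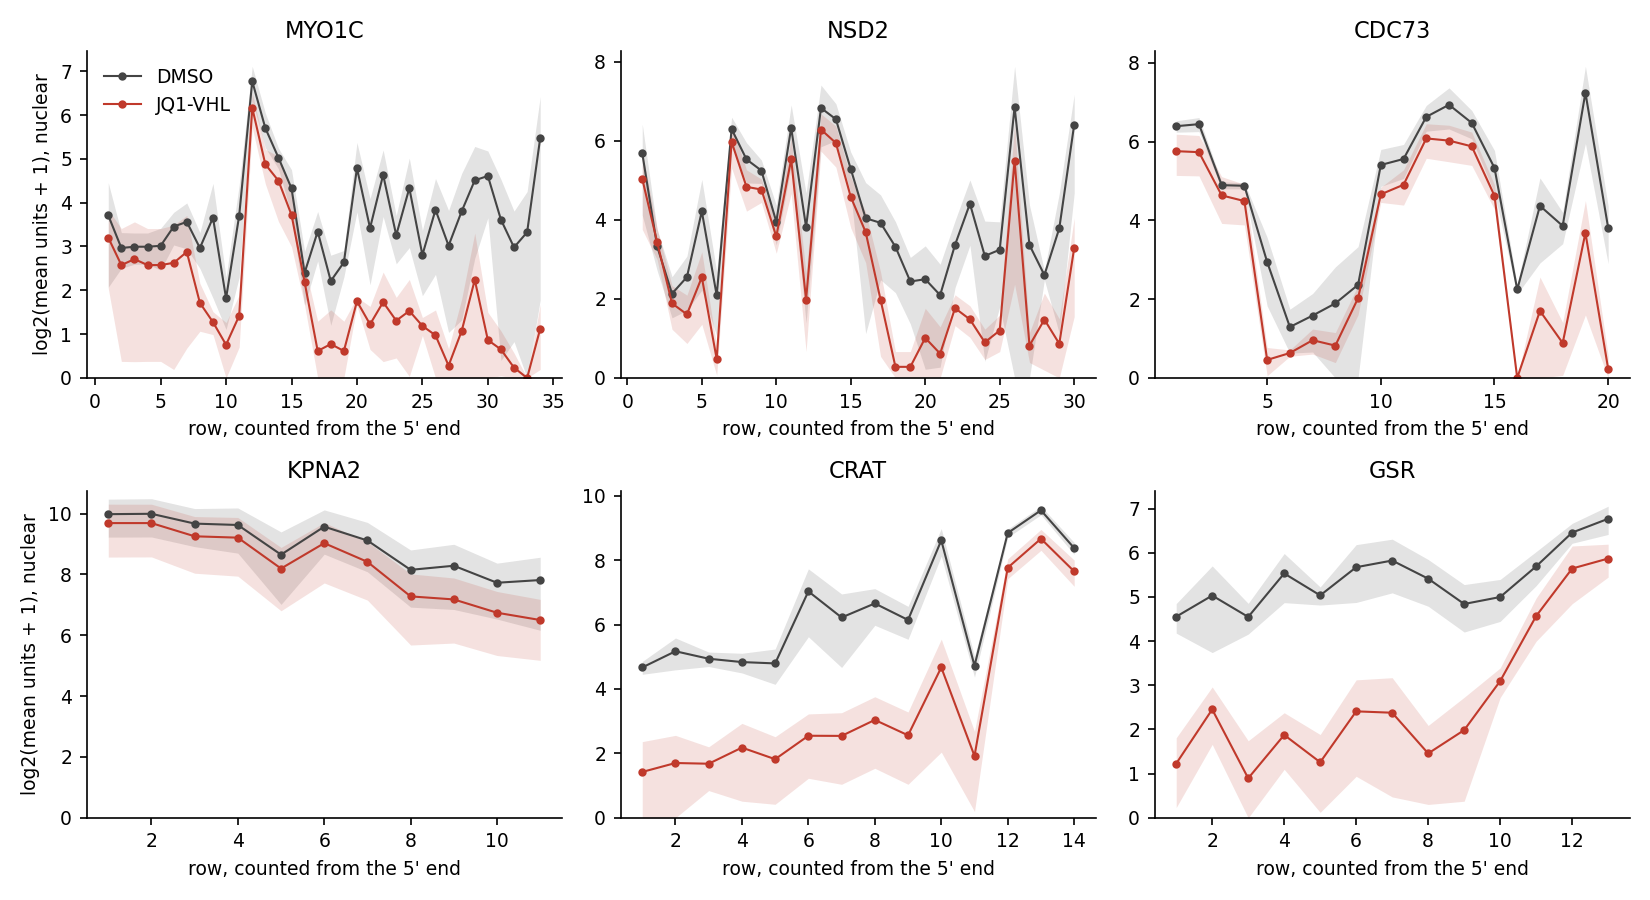
Mean nuclear level on the scale log2(mean units + 1) in every row from the 5′ end, for 6 genes in DMSO (dark) and JQ1-VHL (red), with shading for mean ± SD over 3 libraries. In MYO1C, NSD2 and CDC73 the lines part in the last rows; in CRAT and GSR they part in the first rows and lie closest in the last 3.

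CRAT and GSR had the opposite form. CRAT (chr9:129094810-129111189, minus, 14 rows), carnitine acetyltransferase, held 23.7, 21.3 and 28.2 units in its nuclear 5′ row under DMSO and 0.532, 4.52 and 0 under JQ1-VHL. Its 3′ row held 380, 305 and 308 units against 195, 258 and 147. The ratio fell by 2.88 on the log2 scale (SE 0.42, limma, adjusted p = 0.00088) and fell by 2.05 in total RNA. Row 10 of CRAT went from 391 ± 113 to 24.5 ± 21.3 units, and row 12 from 458 ± 40.5 to 217 ± 45.9. PTPA overlaps this gene. GSR (13 rows), glutathione reductase, went from 28.7, 19.1 and 19.8 to 2.13, 0 and 1.90 units in its 5′ row. Its 3′ row held 135, 89.8 and 99.7 against 57.4, 72.3 and 42.8 units. The ratio of GSR fell by 2.56 on the log2 scale (SE 0.71, limma, adjusted p = 0.038), by 3.85 in the cytoplasm and by 3.21 in total RNA. In both genes the last 3 rows kept far more of their level than the rows before them.

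**Figure D4:**
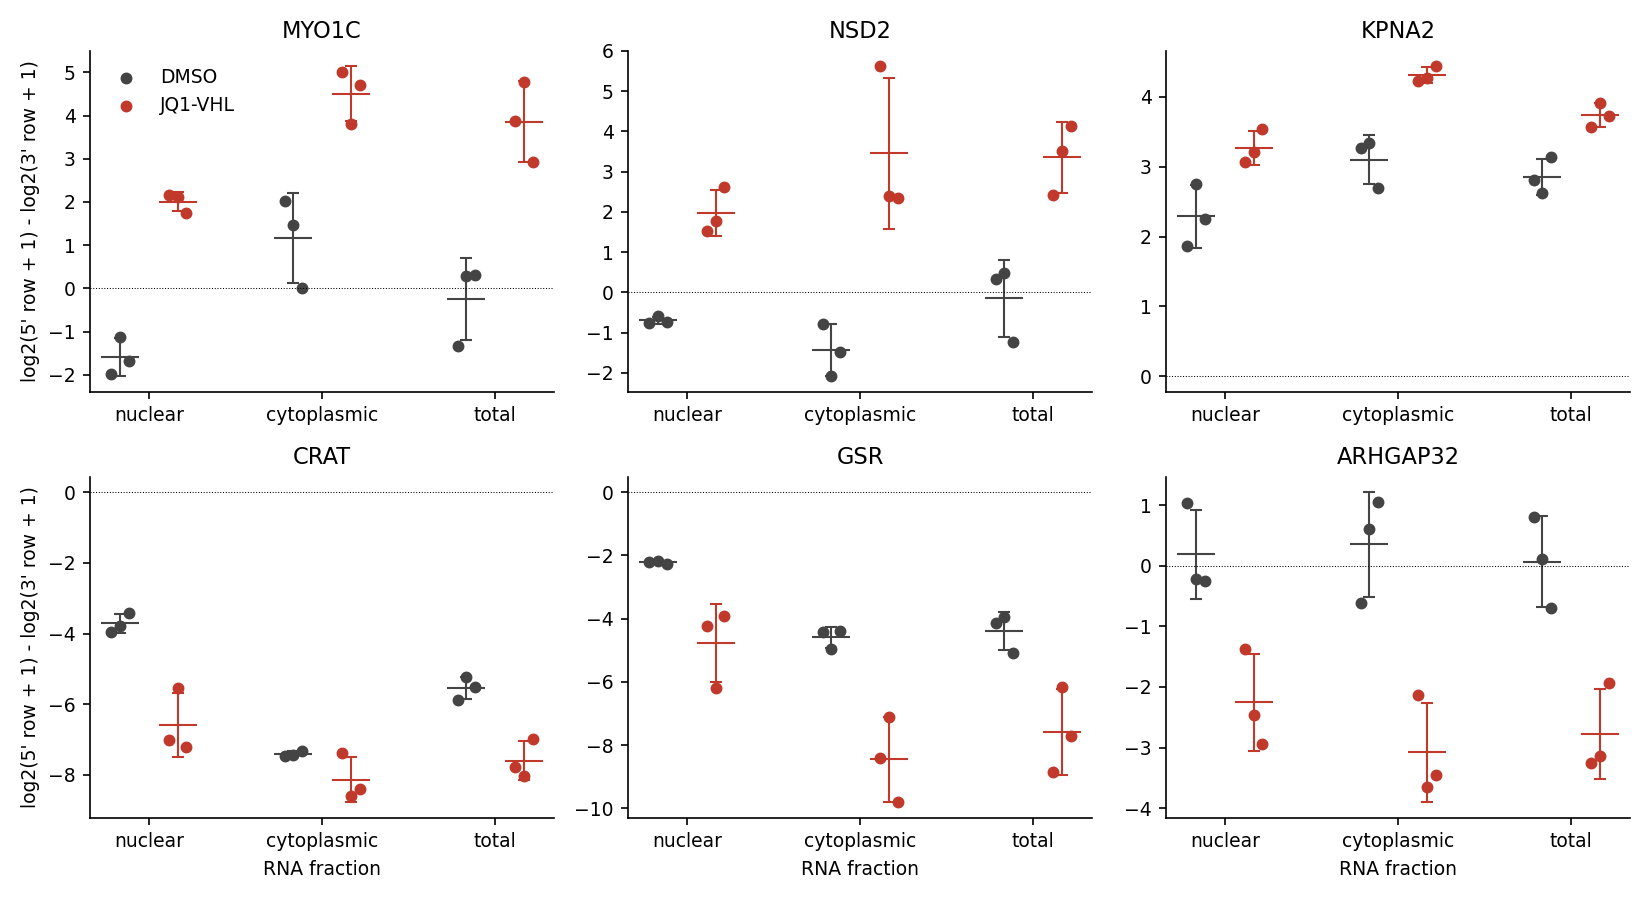
Ratio of both ends, log2(5′ row + 1) minus log2(3′ row + 1), in every library for 6 genes by RNA fraction, with mean and SD of 3 libraries. The ratios of MYO1C, NSD2 and KPNA2 were higher under JQ1-VHL in all 3 fractions, while those of GSR and ARHGAP32 were lower in all 3; in CRAT the cytoplasmic groups overlap.

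The largest nuclear rises were found in RUNX1, PARP16, NAF1, SLC27A4, MYO1C and PTDSS1. RUNX1 (chr21:34787801-36004667, minus, 10 rows), a DNA-binding transcription factor with more than one promoter, had almost nothing in its 5′ row under DMSO. That row held 1.64, 0 and 0.941 units in DMSO nuclei and 78.2, 106 and 15.2 under JQ1-VHL. These are 2, 0 and 2 reads against 147, 164 and 32. The 3′ row went the other way, from 252, 114 and 79.5 to 18.1, 26.5 and 3.33 units. Each row passed by itself, at 4.90 (limma, adjusted p = 0.00064) and -3.34 (adjusted p = 0.0037), and the ratio rose by 8.24 ± 0.89 (adjusted p = 2.9e-05). In total RNA the 5′ row was at 0 in all 3 DMSO libraries and at 68.7, 69.8 and 66.0 units under JQ1-VHL. With so few reads under DMSO, the fitted size for RUNX1 depends on the added unit. Its 5′ row met the minimum mean through libraries other than those of DMSO nuclei and DMSO total RNA. A rise of that row in these fractions was thus favoured by the minimum itself, and its p-values are descriptions only. The highest interval number of RUNX1 is 16, where GENCODE 29 has 26 gaps, so its 5′ row is not the annotated first gap.

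PARP16 (chr15:65234460-65300618, minus), an ADP-ribosyltransferase of the endoplasmic reticulum membrane, was the other gene whose nuclear 5′ row rose. That row went from 38.5, 30.3 and 20.2 to 375, 420 and 135 units, a change of 3.23 (limma, adjusted p = 0.0032). It was also higher in the cytoplasm, by 4.94, and in total RNA, by 4.00. The 3′ row of PARP16 held 33.6, 24.7 and 19.8 units against 8.51, 14.2 and 0.475. The nuclear ratio rose by 5.37 ± 1.45 (limma, adjusted p = 0.033). Interval 11 of PARP16 is its 5′ row, and GENCODE 29 has only 9 gaps in this gene. SLC27A4 (chr9:128340646-128361470, plus), a fatty acid transporter, was of the more usual kind. Its 5′ row held 95.8, 86.4 and 56.9 against 50, 69.1 and 27.1 units, and its 3′ row went from 261, 109 and 71.0 to 6.38, 9.69 and 0.950. Its ratio rose by 3.81 ± 0.86 (limma, adjusted p = 0.013). NAF1, an assembly factor of box H/ACA RNPs, rose by 3.84 ± 1.02 and PTDSS1, a phosphatidylserine synthase, by 3.53. The gap matched to the 3′ row of NAF1 overlaps AC022272.1. The calls of PARP16 and PTDSS1 were lost when any of 5 nuclear libraries was left out, that of NAF1 with any of 4 and that of SLC27A4 with either of 2. The highest adjusted p was 0.17, 0.15, 0.12 and 0.078, while the nuclear ratios of RUNX1 and MYO1C were called throughout.

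The largest nuclear falls were in EPN3, TARSL2, FAM177A1, CRAT, GSR and ARHGAP32. EPN3 (chr17:50532543-50543750, plus), an epsin of endocytic coats, went from 197, 70.2 and 64.4 to 6.38, 2.58 and 0 units in its 5′ row. The 3′ row of EPN3 held 252, 124 and 107 against 63.3, 83.9 and 24.7 units. The ratio fell by 3.49 on the log2 scale (SE 1.02, limma, adjusted p = 0.044), and by 4.97 in total RNA. ARHGAP32 (chr11:128965060-129279324, minus), a GTPase-activating protein, went from 53.2, 12.9 and 13.6 to 3.72, 2.58 and 0 units in its 5′ row. Its 3′ row overlapped between groups, at 25.4, 15.2 and 16.5 against 11.2, 18.7 and 6.65 units. The ratio fell by 2.44 on the log2 scale (SE 0.66, limma, adjusted p = 0.033), by 3.44 in the cytoplasm and by 2.85 in total RNA. TARSL2, a threonyl-tRNA synthetase paralog, fell by 3.30, and FAM177A1 fell by 3.01. The nuclear calls of EPN3, GSR and ARHGAP32 were lost when any of 5 of the 6 nuclear libraries was left out, and those of FAM177A1 and TARSL2 with any of 4. The highest adjusted p over all alternatives was 0.17, 0.16, 0.16, 0.15 and 0.11. The nuclear call of CRAT stood in all 13 alternatives.

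In the cytoplasm the largest rises were in RUNX1 (6.83), RSF1 (6.54 ± 0.99), PTPN1 (5.34 ± 1.00), NSD2, GPBP1L1 (4.71) and SAP130 (4.65 ± 0.70). SAP130, a subunit of the SIN3 histone deacetylase complex, kept its cytoplasmic 5′ row, at 168, 27.1 and 174 units under DMSO and 111, 140 and 79.6 under JQ1-VHL. Its 3′ row went from 44.6, 7.73 and 24.8 units to 0 in all 3 libraries, so the fitted value depends on the added unit. RSF1, a chromatin remodelling factor, had a nuclear change of only 0.12. Among the largest cytoplasmic falls were those of MLPH, GSR, BSG, FLNA and SPOPL. MLPH, melanophilin, a luminal gene of this line that links RAB27A to myosin, went from 57.8, 13.8 and 49.6 units to 0 in all 3 libraries in its 5′ row. The 3′ row of MLPH held 64.4, 10.5 and 57.8 against 20.9, 32.3 and 15.4 units. The ratio of MLPH fell by 4.51 on the log2 scale (SE 0.67, limma, adjusted p = 0.00056) in the cytoplasm, and its nuclear estimate was -0.43. BSG, the surface protein basigin, fell by 3.69, and the gap matched to its 5′ row overlaps AC009005.1. FLNA, the actin crosslinker filamin A, fell by 3.56, and SPOPL, a ubiquitin ligase adaptor, fell by 3.53. With 3 rows averaged at each end, FLNA read only -0.63 (limma, adjusted p = 0.69) and SPOPL -1.74 (adjusted p = 0.073), and with thinned reads SPOPL read -0.96 (adjusted p = 0.55). The call of FLNA was also lost with edgeR, with thinned reads and without DMSO cytoplasmic replicate 3 or JQ1-VHL cytoplasmic replicate 2. That of GPBP1L1 was lost in these last 4 settings too, and RSF1 was lost with thinned reads and with 3 rows.

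In total RNA RUNX1 (8.73), PPFIA3 (5.37 ± 1.09), SSH3 (4.75 ± 0.80), PPHLN1 (4.67), DDX54 (4.49) and SPEN (4.28) rose most. SSH3, a cofilin phosphatase, held 999, 274 and 319 units in its 5′ row under DMSO and 638, 753 and 798 under JQ1-VHL. Its 3′ row went from 238, 36.3 and 31.9 to 5.50, 3.61 and 1.20 units. SPEN, a large transcriptional corepressor, also rose in the nucleus, by 2.53 (limma, adjusted p = 0.045), but that nuclear call was lost when any of the 6 nuclear libraries was left out (up to 0.17). PPHLN1 overlaps PRICKLE1 and ZCRB1, and DDX54 overlaps CFAP73. Of the genes named before, EPN3 overlaps SPATA20, FAM177A1 overlaps PPP2R3C and GPBP1L1 overlaps TMEM69. The 5′ row of PPHLN1 is interval 9 and not the first interval of the gene. EPN3, ABCA3, DENND1A, LMF1, CPSF2 and XPNPEP3 fell most, where DENND1A overlaps CRB2 and XPNPEP3 overlaps DNAJB7. The call of XPNPEP3 was lost when any of 5 of the 6 total libraries was left out (adjusted p up to 0.28 over all alternatives), and that of ABCA3 with any of 3 (up to 0.076). With 3 rows at each end LMF1 read -1.18 and CPSF2 -1.26, and neither these nor XPNPEP3 passed. CPSF2, a subunit of the cleavage and polyadenylation factor, went from 50.3, 7.52 and 9.13 units to 0 in all 3 libraries in its 5′ row. At its 3′ end CPSF2 held 193, 45.1 and 43.4 against 78.3, 83.0 and 86.4 units, and its ratio fell by 4.22 on the log2 scale (SE 0.83, limma, adjusted p = 0.0047). Its nuclear estimate of -2.23 did not pass (adjusted p = 0.11).

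The ratio rose in all 3 fractions in 26 genes (1.34% of all tested, 2.61% of the 997) and fell in all 3 in 3 genes (0.291% and 0.301%). In 435 of the 997 genes (43.6%) the estimate was above 0 in each fraction, against 37.1% of all tested. Of the 26, only MYO1C, RUNX1 and SEC23B stayed called in every fraction whichever single library was left out. For RUNX1 this is a description, because its 5′ row was near 0 in DMSO nuclei and DMSO total RNA. The fractions come from different libraries of the same design. The 26 included CAMK2D, a calcium/calmodulin-dependent kinase (3.48 in the nucleus, 1.54 in the cytoplasm, 2.81 in total RNA), and SEC23B, a COPII coat protein (2.68, 1.98 and 2.77). They also included YAP1, the Hippo pathway coactivator (2.42, 2.06 and 2.83), BRWD1, a bromodomain protein (3.45, 4.03 and 3.05), and SLC7A5, an amino acid transporter (3.29, 2.45 and 4.07). These 5 were picked after their values were seen. With 3 rows at each end, SLC7A5 read 0.51 in the nucleus, 0.39 in the cytoplasm and 0.76 in total RNA, and none of these passed. YAP1 then read 1.53 in the nucleus, which passed, and -0.14 in the cytoplasm and 0.84 in total RNA, which did not. The cytoplasmic call of CAMK2D was lost when any of 3 libraries was left out (limma, adjusted p up to 0.23 over all alternatives). CAMK2D kept its nuclear 5′ row, at 28.7 ± 8.47 and 25 ± 3.2 units (SD, n = 3), while its 3′ row went from 32.3 ± 12.5 to 1.70 ± 1.11. In YAP1 the 5′ row stood at 32.5 ± 7.57 and 20.8 ± 6.82 units and the 3′ row at 37.1 ± 19.8 and 3.44 ± 1.89. In SLC7A5 they stood at 212 ± 151 and 118 ± 68.2, and at 51.9 ± 9.0 and 2.25 ± 1.02. ARHGAP32, CAMSAP2 and GSR were the 3 that fell in every fraction. The 3′ row of CAMSAP2 matches a gap of 29 bp, and with 3 rows at each end its cytoplasmic change was only -0.34. Its nuclear call was lost without DMSO nuclear replicate 1 or JQ1-VHL nuclear replicate 3.

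Several lists of genes were read in the same way. Of 10 tested genes of transcription elongation (22 of 29 have 10 or more rows), the nuclear ratio rose in 1, CDC73, and fell in none. Their nuclear median was 1.02, against 0.53 over the 997 genes with 10 or more rows and 0.31 over all tested genes. In total RNA the ratio rose in 3 of the 10: CDC73, CDK13, a kinase of the polymerase tail (2.94), and ELL2, an elongation factor (2.85). It fell in PAF1, the name-giving subunit of the complex that holds CDC73, by 2.46. The call of PAF1 was lost with any of 5 of the 6 total libraries left out, with edgeR, with thinned reads and with a pseudocount of 0.1 (adjusted p up to 0.17). Those of CDK13 and ELL2 were each lost when any of 3 libraries was left out (up to 0.15 and 0.13 over all alternatives). With 3 rows at each end, ELL2 read only 0.72 in total RNA (limma, adjusted p = 0.13). Of 7 tested genes of 3′ end processing, none passed in the nucleus and the median was -0.22. CPSF6, a cleavage factor subunit, read 1.75 there (limma, adjusted p = 0.063). Of 3 tested long DNA repair genes none passed, with PRKDC, the DNA-PK catalytic subunit, at 1.40, FANCI at 1.00 and FANCA at -0.39. The gap matched to the 3′ row of FANCI overlaps POLG.

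None of 6 tested luminal and receptor genes passed in the nucleus (median 0.15), where GRHL2, an epithelial transcription factor, read 1.15 and ERBB3, a receptor kinase, 0.62. Of 4 tested speckle and export genes none passed in the nucleus (median 0.36), where SF3B1, a core splicing factor, read 1.25 and ACIN1 1.17. ACIN1, a splicing-linked protein, rose by 2.18 in total RNA (limma, adjusted p = 0.031), a call that was lost when any of 5 of the 6 total libraries was left out (up to 0.18). The gap matched to its 5′ row overlaps C14orf119, whose reads cannot be told apart without the strand. Of 9 tested cytoskeletal and housekeeping genes none passed in the nucleus (median -0.05). There ACTN4, an actin crosslinker, read -2.02, and MYH9, a non-muscle myosin heavy chain, read 0.90 and rose by 2.42 in total RNA (limma, adjusted p = 0.045). That call of MYH9 was lost when any of 5 of the 6 total libraries was left out, with no filter and with thinned reads (up to 0.22).

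The shift did not rise or fall steadily with span, and genes of middle span had the highest medians. Genes were split by span into 3 groups of near equal number. The median nuclear change was 0.55 in the shortest (4.385 to 36.751 kb), 0.73 in the middle group (36.864 to 79.821 kb) and 0.39 in the longest (79.945 to 1216.87 kb). In the cytoplasm these were 0.20, 0.45 and 0.30, and in total RNA 0.53, 0.70 and 0.36. In same-numbered pairs the nuclear middle group read 0.59, 0.54 and 0.89 and the longest 0.24, 0.44 and 0.39, without overlap. In total RNA these were 0.63, 0.55 and 0.78 against 0.40, 0.40 and 0.40, also without overlap. In the cytoplasm 0.45, 0.47 and 0.09 in the middle group overlapped with 0.30, 0.32 and 0.31 in the longest. The shortest group overlapped with the middle one in the nucleus (0.40, 0.47 and 0.81) and in the cytoplasm (0.15, 0.13 and 0.22). In total RNA the shortest group read 0.51, 0.37 and 0.48, without overlap with the middle one. Across the 997 genes, which are not independent replicates, Spearman's rho with span was -0.06 in the nucleus, 0.04 in the cytoplasm and -0.03 in total RNA, where it was 0.02 without DMSO total replicate 1. In the 79 genes of 200 kb or more the nuclear median was 0.07, and the 3 pairs gave -0.09, 0.22 and -0.22.

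Of the 6 genes with the longest span, only RUNX1 had a called ratio. SHANK2, a postsynaptic scaffold, read -0.06 in the nucleus, FOXP1, a forkhead factor, -0.68, NFIA, a nuclear factor I protein, 0.87 and TRAPPC9, a vesicle tethering subunit, -2.76 (limma, adjusted p = 0.19). PDE4B, a cAMP phosphodiesterase, lost both of its counted end rows: its 5′ row went from 60.6, 13.5 and 19.3 to 1.06, 0 and 0 units. Its 3′ row went from 27.0, 19.6 and 16.5 units to 0 in all 3 libraries. Both rows fell (limma, adjusted p = 0.0031 and 0.0023) and the change of the ratio was 0.07. The 5′ row of PDE4B is interval 18 of a gene numbered up to 28, and that of NFIA is interval 3. Neither is thus the first interval of its gene.

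**Figure D5:**
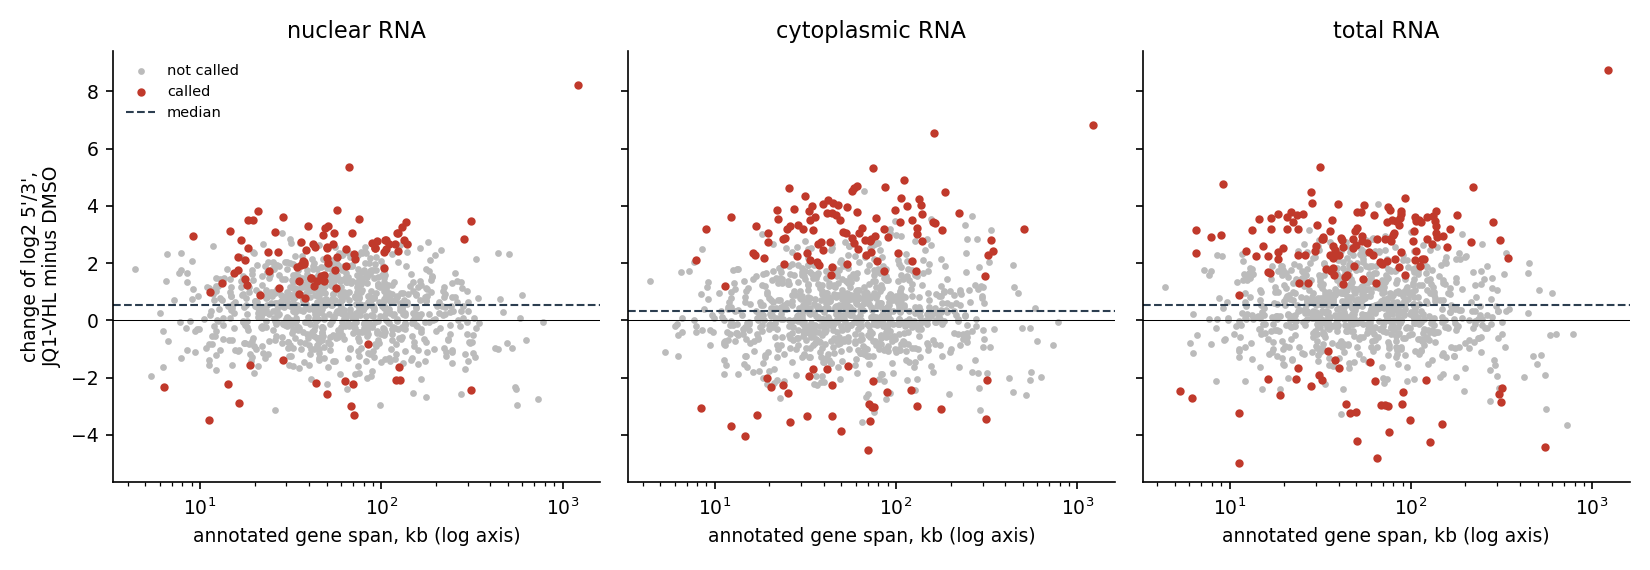
Fitted change of the log2 5′ to 3′ ratio (JQ1-VHL minus DMSO) of each of the 997 tested genes against its annotated span in kb on a log axis, per RNA fraction; red points passed an adjusted p of 0.05 and the dashed line is the median. The medians lie at 0.53, 0.33 and 0.53, and the point at the far right is RUNX1.

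Among the 6 genes with the highest end rows in DMSO nuclei, only KPNA2 had a called nuclear ratio. HSP90AB1, the constitutive HSP90 chaperone, held 1895, 1212 and 959.8 units in its 5′ row under DMSO and 1558, 1778 and 588 under JQ1-VHL. At the 3′ end 1821, 1157 and 886 units stood against 1493, 1785 and 569.7. The groups overlapped at both ends and the ratio changed by -0.05 ± 0.29. ENO1, a glycolytic enzyme, read 0.23, XRCC6, the DNA repair protein Ku70, 0.24, CD46, a complement regulator, 0.12 and HSPD1, the mitochondrial chaperonin, 0.02. The 5′ row of XRCC6 matches a gap of 4 bp, far shorter than a read.

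Levels of both ends can be set side by side only per length, in the 411 genes whose end rows match an annotated gap of known length. Their 5′ gaps had a median of 3055 bp and their 3′ gaps of 998 bp. Per kb, DMSO nuclei held a median of 13.7 units in 5′ rows and 50.9 in 3′ rows, and JQ1-VHL nuclei 4.50 and 13.3. The 5′ row was the higher per kb in 95 of these genes under DMSO and in 128 under JQ1-VHL. In total RNA the medians were 17.3 and 65.6 under DMSO and 11 and 23.6 under JQ1-VHL, with 105 and 159 genes higher at the 5′ end. The nuclear ratio changed by a median of 0.59 where the 5′ gap was the longer (278 genes) and 0.78 where the 3′ gap was (133 genes). RNA was selected by its poly-A tail, and the part of that step in the level of either end was not tested.

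The difference between fractions was tested directly. Of the 997 genes, 3 had a ratio change that was higher in the nucleus than in the cytoplasm (0.291% of all tested) and none one that was lower (0.109%). The limma interaction reached an unadjusted p under 0.05 in 123 of them. They included ALDH7A1, a lysine-catabolic aldehyde dehydrogenase, and FRMD8, a membrane adaptor. The count fell to 0 when DMSO nuclear replicate 1 or 2, JQ1-VHL nuclear replicate 1 or DMSO cytoplasmic replicate 1 was left out, and reached 9 without JQ1-VHL cytoplasmic replicate 1 or 2. Under DMSO alone, the 5′ to 3′ ratio was higher in the nucleus than in the cytoplasm in 182 genes (17.9% of all tested) and lower in 224 (19.8%), with a median of -0.10. The baseline of both fractions therefore differed in single genes in either direction.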

How the data were processed

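Per the labels, RNA was labelled, alkylated, poly-A selected and read as 150 bp pairs. Per the submitters' processing notes, bcl2fastq, Trimmomatic 0.39, HISAT2, HTSeq and DESeq2 were used with builds GRCh37/hg19 and dm3. The deposited values are a signal: T-to-C read counts per interval that the authors divided by 1 ERCC factor per library, and whole reads were recovered from their steps. GENCODE 29 (GRCh38) gave strand, symbol, gene type, span, the gaps between merged exons and the overlapping genes. Its gaps were matched to the interval numbers by count only. No coordinates were moved between builds, so a matched gap need not be the counted interval. Genes, gene lists and rules were chosen with earlier results of these data known.

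Ratios log2(5′ row + 1) minus log2(3′ row + 1) and rows as log2(value + 1) were fitted with limma 3.58.1 (R 4.3.3; trend, robust; 6 group means; two-sided; Benjamini-Hochberg at 0.05). Rows needed a mean of at least 10 units, and a fold on this scale understates changes of low rows. A member passing only through the group where it is high had to differ, so counts over tested genes are descriptions. The scripts were tested on simulated data. There limma called 30% and 74% of nuclear ratio rises of 2 and 3 on the log2 scale, and 20% and 56% of falls of the same size. It called 2 of 2552 unchanged genes. Falls were thus called less often than equal rises in that setting, where only the 5′ row was changed. Changes of the 3′ row were not simulated, so these shares do not cover ratios that moved through the 3′ row. Named genes were the 6 largest called changes without overlap per direction and fraction, the 6 longest, the 6 with the highest nuclear DMSO end rows and 2 per fixed list. With 3 against 3 libraries an exact permutation test cannot go below 0.1, so none is given.

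The labels number the libraries and give the same number as a batch, which pairs them across groups. The correlations of their deviations were 0.18, -0.17 and 0.18 in the nucleus, 0.07, -0.01 and 0.02 in the cytoplasm, and 0.17, 0.05 and 0.05 in total RNA. Alternatives were other pseudocounts and minima, edgeR 4.0.16 and DESeq2 1.42.0 on recovered reads, thinned reads, 3 rows per end, 20 or more rows, complete numbering, the replicate block and each library left out. Gaps of at least 150 bp, and the profile without a minimum or rescaled, were added after seeing the data. Interval sequences were not analysed here. Some genes that this rule or a test names are not reported here.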

Additional observations from a re-analysis of the deposited data

Results flagged for a closer look

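The change of the 5′ to 3′ ratio of ALDH7A1 and FRMD8 differed between nucleus and cytoplasm by the limma interaction with Benjamini-Hochberg adjustment over 2752 genes. In ALDH7A1 the nuclear change minus the cytoplasmic one was 3.03 ± 0.59 (SE, adjusted p = 0.036), from a nuclear change of 1.88 and a cytoplasmic one of -1.14. Its nuclear 5′ row held 242, 168 and 190 units under DMSO and 163, 229 and 115 under JQ1-VHL, and its nuclear 3′ row went from 36.0, 18 and 16.0 to 4.26, 6.46 and 2.38. In the cytoplasm its 3′ row held 14.9, 6.07 and 16.5 against 33.5, 75.3 and 57.3 units.

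In FRMD8 the difference was 2.60 ± 0.43 (adjusted p = 0.014), with 2.38 in the nucleus and -0.22 in the cytoplasm. Its nuclear 5′ row held 59.0, 39.9 and 40.0 against 37.2, 45.2 and 14.3 units, and its nuclear 3′ row went from 325, 134 and 135 to 30.3, 32.3 and 9.98. Its cytoplasmic 3′ row held 101, 11 and 190 against 69.1, 62.4 and 39.1 units, and these overlapped.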

How the results depend on the processing

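Of 201 alternative values of the summaries, 117 stayed within their limits, 84 moved, and 1 changed sign: rho with span in total RNA was -0.03 and became 0.020 without DMSO total replicate 1. The nuclear count of called genes (100) was 51 with a pseudocount of 0.1, 40 with a mean of at least 50 units, 154 with edgeR, 272 with 3 rows at each end, 20 in genes with 20 or more rows, 41 with complete numbering and 35 with both end gaps of at least 150 bp. The cytoplasmic count (128) was 8 at a mean of 50, 209 with no filter, 70 with edgeR, 31 with thinned reads, 202 with 3 rows, 28, 59 and 53 in those subsets. The total count (164) was 38 with a pseudocount of 0.1, 18 at a mean of 50, 280 with no filter, 307 with 3 rows, 42, 70 and 59 in the subsets. The 3 subsets held 233, 369 and 337 genes. A mean of 50 left 150 genes, no filter 3867 and 3 rows 1424, against 997 in the main fit. At a mean of 50, the share called was 26.7% in the nucleus, 5.33% in the cytoplasm and 12% in total RNA. With no filter these shares were 2.33%, 5.40% and 7.24%, and with 3 rows 19.1%, 14.2% and 21.6%. Other causes of the differing counts were not tested. The interaction gave 6 of the 150 genes at a mean of 50, and the DMSO contrast of nucleus and cytoplasm (406 of 997) gave 68.

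The median nuclear change (0.53) was 0.69 with gaps of at least 150 bp. The cytoplasmic median (0.33) was 0.26 with a pseudocount of 5, 0.042 at a mean of 50, 0.23 with no filter, 0.25 with thinned reads and 0.15 with 3 rows. The total median (0.53) was 0.42 with a pseudocount of 5, 0.22 at a mean of 50, 0.42 with no filter, 0.35 with 3 rows, 0.59 with complete numbering and 0.60 with gaps of at least 150 bp. Called end rows in the nucleus (478) were 133 with a pseudocount of 0.1. In the cytoplasm (64) they were 245 rescaled, 103 with the replicate block and 355 with DESeq2. In total RNA (96) they were 440 rescaled, 5 with a pseudocount of 0.1, 153 with no filter, 175 with the replicate block and 632 with DESeq2. The replicate block gave 108, 134 and 178 called genes and changed no other count of genes by over 1.5 times. Last minus first bin in total RNA (-0.74) was -0.88 in genes with 20 or more rows and -0.60 with no filter.

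With each library left out, called genes ranged from 26 to 78 in the nucleus, 100 to 141 in the cytoplasm and 68 to 152 in total RNA, the interaction from 0 to 9 and the DMSO contrast from 289 to 406. Medians ranged from 0.49 to 0.59, 0.25 to 0.31 and 0.44 to 0.59. Called end rows ranged from 26 to 573, 10 to 149 and 5 to 101. The bin difference ranged from -0.79 to -0.55, -0.44 to -0.26 and -0.82 to -0.68, and rho with span from -0.07 to -0.01, 0.03 to 0.05 and -0.062 to 0.020. For named genes, 1836 values kept their side of the threshold, 191 lost it and 70 gained it. In the cytoplasm thinned reads ended the calls of CDC73, NSD2, SAP130, MLPH, RSF1, BSG and FLNA, and a pseudocount of 0.1 those of EPN3, CRAT and GSR in total RNA. The third JQ1-VHL nuclear library was the shallowest, with 1584517 reads; with all libraries thinned to that depth, 144, 31 and 110 genes were called.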
